A study of Mus musculus with 18 samples.

Results

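Dct, As3mt, Slc14a2, Pdzph1 and 4933424G05Rik were the 5 genes examined, and each was read by 1 probe. They were chosen by the difference between rostral and caudal neocortex in these arrays, so that difference is a description of how they were found and not a test. The 5 probes are among 21766 that were no control spots, and all 5 belonged to the 18525 features with enough values to be tested. None of their 90 values, 1 per probe and array, was missing or capped at the file's highest ratio.

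The tissue was neocortex of MF1 mouse embryos at E13.5, dissected into a rostral, a middle and a caudal part. RNA of 3 rostral, 3 middle and 3 caudal pools was hybridised in pairs of different regions on 18 arrays with 2 dyes, so that 6 arrays joined each pair of regions and every pool was measured 4 times, 2 times per dye. All pools carry the same strain and age, no treatment is given in the labels, and the labels name 4 embryos without saying which gave which pool. The p-values below therefore measure the spread between pools, which may be technical, and in pooled tissue fewer cells of a type and less RNA per cell cannot be told apart.

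Each value is a log2 ratio between 2 pools, relative to the median of its array, and pool values are log2 differences from the mean of the 9 pools. A ratio gives no level, so no gene could be ranked against another by abundance and presence or absence was not read. The direction of the ratios is not given in the sources used here and is taken as Cy5 over Cy3, which is likely and not certain. It rests on Nr2f1, a nuclear receptor gene known to be high in caudal cortex, at -1.02 ± 0.07 (SE, limma adjusted p = 0.0138) for rostral minus caudal. The other Nr2f1 probe was at -1.02 ± 0.17 and did not pass (limma adjusted p = 0.15). The direction rests also on Etv1, an ETS factor gene downstream of FGF signalling, at 0.80 ± 0.07 (adjusted p = 0.0272). Turned round, every difference below would change its sign.

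The cortical sheet acquires its areas from graded transcription factors, set up in part by FGF from a rostral source, and an area gene can follow that gradient evenly or change over one stretch of the axis. None of the 5 genes is a textbook member of that system. Dct encodes dopachrome tautomerase, which acts after tyrosinase in melanin synthesis and is also known from the embryonic forebrain. As3mt encodes the methyltransferase that adds methyl groups from S-adenosylmethionine to arsenite. Slc14a2 encodes the UT-A urea transporters, best known from the kidney's collecting ducts. Pdzph1 encodes a protein with PDZ and pleckstrin homology domains, and 4933424G05Rik is annotated as a long noncoding RNA.

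The promoters of Dct, As3mt and Pdzph1 are shown because these were the members found in the promoter table. That the 5 genes share a difference between regions follows from how they were chosen. They cover the 250 bases before the annotated start, 5′ to 3′ on the gene's strand, from RefSeq (GRCm38.p6): Dct at chr14:118052247-118052496 on the minus strand, As3mt at chr19:46707208-46707457 on the plus strand and Pdzph1 at chr17:58991376-58991625 on the minus strand. Promoters of 3 of the 5 genes were matched, and Slc14a2 and 4933424G05Rik are named only. Capitals mark matches on either strand to the 7 motifs searched.
Dct: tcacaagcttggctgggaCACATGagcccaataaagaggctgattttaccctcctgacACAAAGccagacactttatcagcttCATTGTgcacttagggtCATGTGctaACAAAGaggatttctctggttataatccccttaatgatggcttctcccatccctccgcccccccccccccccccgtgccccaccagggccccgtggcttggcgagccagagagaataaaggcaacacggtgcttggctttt
As3mt: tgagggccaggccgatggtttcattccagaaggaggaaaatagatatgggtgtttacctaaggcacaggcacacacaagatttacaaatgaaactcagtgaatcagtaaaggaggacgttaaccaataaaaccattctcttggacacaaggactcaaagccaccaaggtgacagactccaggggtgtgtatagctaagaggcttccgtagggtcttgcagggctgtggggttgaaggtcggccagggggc
Pdzph1: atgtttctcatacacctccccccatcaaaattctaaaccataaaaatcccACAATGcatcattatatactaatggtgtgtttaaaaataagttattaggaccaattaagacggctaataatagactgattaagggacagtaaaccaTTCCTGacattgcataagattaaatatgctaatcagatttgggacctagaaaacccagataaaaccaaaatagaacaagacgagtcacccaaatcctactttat
The motifs were CATGTG, the core bound by the pigment cell factor MITF, ACAAAG and ACAATG of SOX factors, TGACCT of nuclear receptors, CAGGAA and CCGGAA of ETS factors, and TAATTA of homeobox factors. The Dct promoter held CATGTG 2 times, ACAAAG 2 times and ACAATG 1 time, with no overlap between matches. The Pdzph1 promoter held ACAATG 1 time and CAGGAA 1 time. The As3mt promoter held none of the 7, and none of the 3 held the nuclear receptor motif, the homeobox motif or CCGGAA. Among 32851 RefSeq promoters of the same length, 12.3% held CATGTG, 16.5% ACAAAG, 10.7% ACAATG, 14% TGACCT, 25.7% CAGGAA, 12% CCGGAA and 4.84% TAATTA. These are matches of letters, not known binding sites. The bases G and C made up 54.0% of the Dct promoter, 49.6% of the As3mt promoter and 33.6% of the Pdzph1 promoter, against a median of 52.4% over all promoters.

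In rostral against caudal neocortex 12 of the 18525 features passed at a limma adjusted p under 0.05, which is 0.0648% of those tested, and 9 of the 12 were higher in rostral pools. The count was 0 without centring and ran from 0 to 22 with 1 pool or array left out, of which 22 was reached without array 15. The 5 genes are among those 12 because the choice used this contrast. By adjusted p, the members nearest the limit were Slc14a2, with a rostral minus caudal difference of 0.87, and 4933424G05Rik with 0.51. The features just inside it were Slc14a2, Laptm4b (-0.47) and Ptn (0.49), and those just outside were Ltbp1 (-1.08), Amer1 (0.50) and Pou3f2 (0.68). No feature passed in the 3 other contrasts: 0 (0%) for rostral against middle, 0 (0%) for middle against caudal and 0 (0%) for the middle set against the ends' mean. At an unadjusted p under 0.05 they held 973, 901 and 752 features, in that order.

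Dct, the melanin gene, had the widest span of the 5. Its log2 pool values were 0.53, 0.77 and 0.62 in rostral pools, -0.33, -0.00 and -0.08 in middle pools, and -0.54, -0.61 and -0.37 in caudal pools. All rostral pools were above all middle pools, and the middle pools were above the caudal ones by a gap of only 0.04. The rostral mean was 0.64 ± 0.12, the middle mean -0.14 ± 0.17 and the caudal mean -0.50 ± 0.12 (SD, n = 3 pools each). Rostral minus caudal was 1.15 ± 0.11 (SE), a 2.21-fold ratio, made of 0.78 from rostral to middle and 0.37 from middle to caudal.

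As3mt, the arsenite methyltransferase, had the same outline with a lower middle. Its log2 pool values were 0.47, 0.58 and 0.59 in rostral pools, -0.27, -0.17 and -0.05 in middle pools, and -0.43, -0.47 and -0.25 in caudal pools. The rostral pools stood apart from all others, while the middle and caudal pools overlapped. Rostral pools averaged 0.55 ± 0.07, middle pools -0.16 ± 0.11 and caudal pools -0.38 ± 0.12 (SD, n = 3 each). Rostral minus caudal was 0.93 ± 0.08 (SE), with a rostral to middle difference of 0.71 and a middle to caudal difference of 0.22.

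Slc14a2, the urea transporter gene, separated the rostral pools from the rest. Its log2 pool values were 0.56, 0.64 and 0.52 in rostral pools, -0.33, -0.25 and -0.25 in middle pools, and -0.13, -0.28 and -0.48 in caudal pools. The middle pools lay within the range of the caudal pools. Rostral pools averaged 0.57 ± 0.06, middle pools -0.28 ± 0.05 and caudal pools -0.30 ± 0.17 (SD, n = 3 each). Rostral minus caudal was 0.87 ± 0.09 (SE), a 1.83-fold ratio, with 0.85 from rostral to middle and 0.02 from middle to caudal.

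Pdzph1, whose function is little known, had its pools in 3 separate tiers, with the widest gap of the 5 genes between middle and caudal. Its log2 pool values were 0.37, 0.53 and 0.56 in rostral pools, -0.16, 0.01 and 0.10 in middle pools, and -0.50, -0.46 and -0.45 in caudal pools. The lowest middle pool was 0.30 above the highest caudal pool. Rostral pools averaged 0.49 ± 0.10, middle pools -0.01 ± 0.13 and caudal pools -0.47 ± 0.02 (SD, n = 3 each). Rostral minus caudal was 0.96 ± 0.08 (SE), a 1.94-fold ratio, with steps of 0.50 from rostral to middle and 0.46 from middle to caudal.

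The long noncoding RNA 4933424G05Rik had the smallest span. Its log2 pool values were 0.27, 0.26 and 0.33 in rostral pools, -0.08, -0.08 and -0.05 in middle pools, and -0.29, -0.16 and -0.20 in caudal pools. Its 3 regions did not overlap, with a gap of 0.08 between middle and caudal pools. Rostral pools averaged 0.29 ± 0.03, middle pools -0.07 ± 0.02 and caudal pools -0.22 ± 0.07 (SD, n = 3 each). Rostral minus caudal was 0.51 ± 0.05 (SE), a 1.42-fold ratio, with 0.36 from rostral to middle and 0.15 from middle to caudal.

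**Figure D1:**
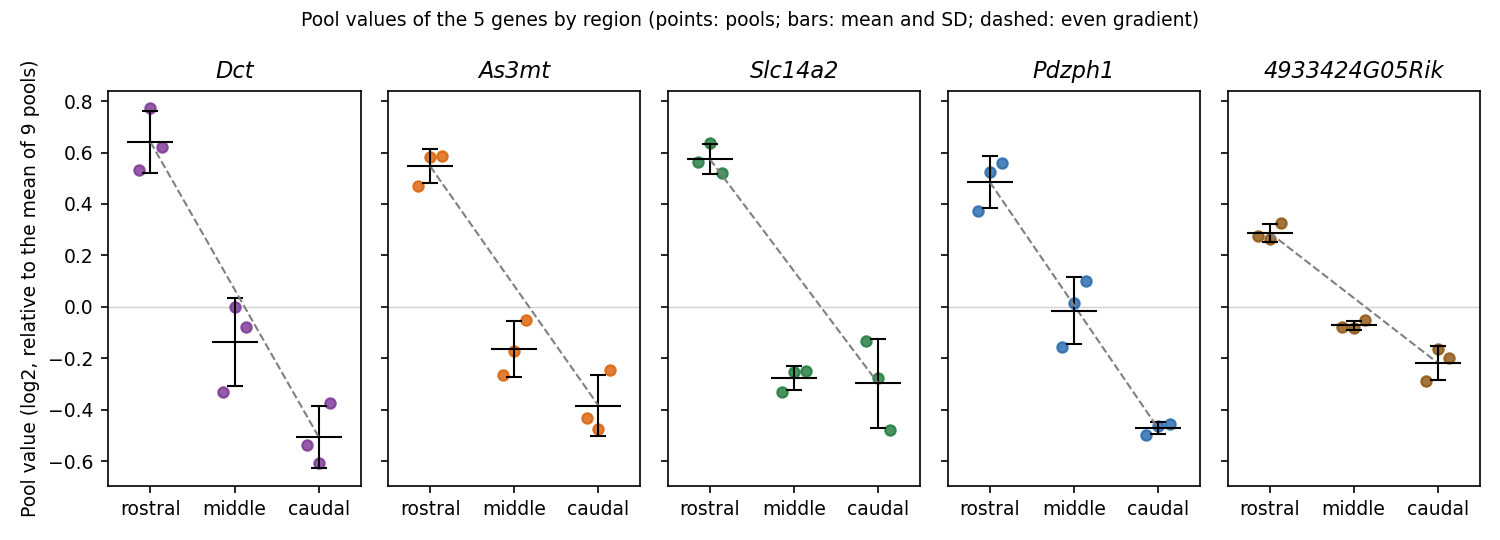
Log2 value of each pool relative to the mean of the 9 pools (vertical axis) in rostral, middle and caudal neocortex (horizontal axis), with 1 panel per gene. Points are pools, bars with whiskers are the mean and SD of 3 pools, and the dashed line joins the rostral and caudal means as an even gradient would. Rostral pools lie highest in all 5 panels, and the middle pools of Slc14a2 lie at the height of its caudal pools while those of Pdzph1 lie midway.

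Over all features, the 3 rostral pools lay above the 3 caudal pools in 6.22%, above the 3 middle pools in 5.17%, and the 3 middle pools above the 3 caudal pools in 6.18%. Rostral pools lay above caudal and above middle pools in 5 of the 5 genes, which the choice of genes largely fixes. Middle pools lay above caudal pools in 3 of the 5, Dct, Pdzph1 and 4933424G05Rik, and overlapped with them in As3mt and Slc14a2. The caudal pools also entered the choice, so nothing is read from these counts.

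Each ratio was turned so that the rostral or more rostral pool is on top. The 5 genes were then above 0 on 6 of 6 arrays joining rostral to caudal pools, and on 6 of 6 joining rostral to middle pools. The choice of the genes largely fixes this. Between middle and caudal pools, Pdzph1 was above 0 on 6 of 6 arrays, Dct and As3mt on 5 and Slc14a2 and 4933424G05Rik on 4. With the fitted dye term removed, Slc14a2 was above 0 on 3 of the 6 and 4933424G05Rik on 5. The SD between arrays around the fitted values was 0.16 to 0.27 for these genes, against a median of 0.256 over all features. The SD between pools was 0.044 to 0.14, against a median of 0.151.

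Rostral over caudal ratios on single arrays ran between 0.79 and 1.62 for Dct, 0.59 and 1.19 for As3mt, and 0.60 and 0.93 for Slc14a2. They ran between 0.50 and 1.40 for Pdzph1 and between 0.32 and 0.89 for 4933424G05Rik. Middle over caudal ratios, the lower step, lay between -0.36 and 0.53 for Slc14a2 and between 0.25 and 0.75 for Pdzph1. The lower step of Slc14a2 differed with the dye: its mean middle over caudal ratio was 0.37 on the 3 arrays with the middle pool in Cy5 and -0.14 on the 3 with it in Cy3. The same means were 0.59 and 0.50 for Pdzph1 and 0.33 and -0.16 for 4933424G05Rik. The fitted dye term was 0.17 for Slc14a2, 0.15 for 4933424G05Rik, 0.07 for Pdzph1, 0.01 for Dct and -0.00 for As3mt, and each pool was in each dye equally often.

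**Figure D2:**
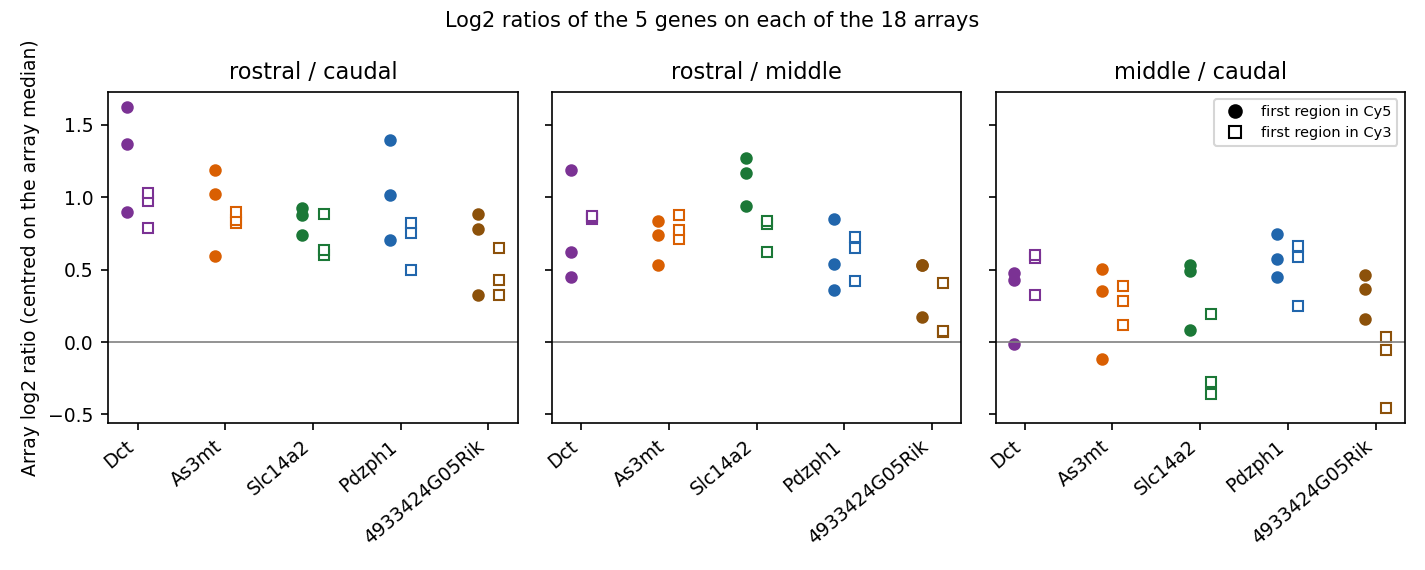
Log2 ratio of each of the 18 arrays, centred on the array median and turned so that the more rostral region is on top (vertical axis), by gene (horizontal axis) and pair of regions (panels). Filled circles are arrays with the more rostral pool in Cy5 and open squares those with it in Cy3. All ratios with a rostral pool are above 0, and the middle over caudal mean of Slc14a2 is 0.37 over the circles and -0.14 over the squares.

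The 6 arrays that joined the ends directly and the sum of the steps through the middle measure the same difference on separate arrays with the same pools. For rostral over caudal, the direct arrays gave 1.11 and the path through the middle 1.21 for Dct, 0.894 and 1.001 for As3mt, and 0.78 and 1.05 for Slc14a2. They gave 0.87 and 1.14 for Pdzph1, and 0.57 and 0.38 for 4933424G05Rik. The signs were the same for all 5 genes, and the paths differed by between 0.09 and 0.28 on the log2 scale. Both paths entered the difference by which the genes were chosen, so the shared signs are no finding.

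The shape along the axis was read from the middle pools. The share of the rostral minus caudal difference that lay between rostral and middle was 97.7% for Slc14a2 (95% interval 75.8 to 126), so its interval excluded 50%, the share of an even gradient. It was 76.3% for As3mt (57.7 to 97.4) and 71.0% for 4933424G05Rik (50.4 to 94.1), whose lower bound barely cleared an even share. For Dct the share was 67.9% (48.1 to 89.5) and for Pdzph1 it was 52.3% (34.8 to 70.0), and both intervals included an even share. The intervals are Fieller intervals from the spread between pools, and this spread entered the choice of the genes. Among the other features past the limit in rostral against caudal, the share was 73.9% for Etv1, 70.9% for Vim and 66.2% for Laptm4b. It was 61.5% for Nr2f1, 54.6% for both Scrn1 and Pantr2, and 33.6% for Ptn, all given without intervals. A share above 50% was therefore not confined to the chosen genes, though Slc14a2 and As3mt had higher shares than all of these features.

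The middle minus the mean of the ends is 0 for an even gradient and below 0 for a rostral gene whose change lies on the rostral side, and it is independent of the end contrast apart from the shared spread. It was -0.42 ± 0.08 for Slc14a2, -0.24 ± 0.07 for As3mt, -0.20 ± 0.10 for Dct, -0.11 ± 0.04 for 4933424G05Rik and -0.02 ± 0.07 for Pdzph1 (SE, n = 3 pools a region). Across all 18525 features limma gave an adjusted p of 1 to each of them, so no departure from an even gradient passed. Unadjusted limma p-values were 0.000971 for Slc14a2, 0.0119 for As3mt, 0.0466 for 4933424G05Rik, 0.0697 for Dct and 0.763 for Pdzph1. An unadjusted p under 0.05 occurred in 4.06% of all features and in 3 of the 5 genes. All 5 values were below 0, beside a median of -0.0001 over all features. The choice of the genes favoured a small spread between pools, which also lowers this p. The 4.06% is therefore not a like background, and nothing is read from these counts. Of the other features past the limit in rostral against caudal, Etv1 and Vim had such a p too (limma, 0.0169 and 0.0485). With 1 pool or array left out, Dct reached -0.11 without middle pool 1 and 4933424G05Rik reached -0.04 without array 16.

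Centring bears on this measure. Without centring, the median of all features moved by -0.07 for rostral minus caudal, by 0.10 for rostral minus middle and by -0.17 for middle minus caudal. The middle to caudal step then became -0.15 for Slc14a2 and -0.03 for 4933424G05Rik, so its sign turned in these 2 genes, and was 0.05 for As3mt, 0.19 for Dct and 0.28 for Pdzph1. The middle minus ends value became -0.55 for Slc14a2, -0.38 for As3mt, -0.34 for Dct, -0.24 for 4933424G05Rik and -0.16 for Pdzph1, beside a median of -0.14 over all features. The share between rostral and middle became 68.1% for Pdzph1 and 119% for Slc14a2. The order of the 5 shares then differed only in 4933424G05Rik, at 106%, passing As3mt, at 94.6%, with Dct at 81.9%.

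**Figure D3:**
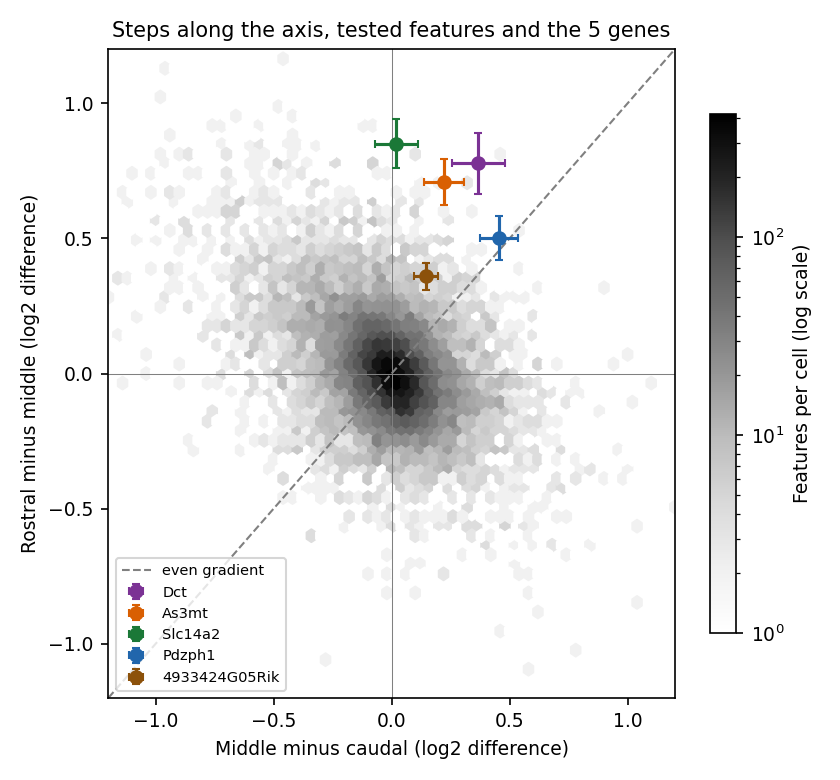
Rostral minus middle difference (vertical axis, log2) against middle minus caudal difference (horizontal axis, log2) for the 5 genes, with SE bars, and for the tested features as grey cells, darker where they hold more features (log scale). Beyond the plotted limit of 1.2 on either axis lie 179 features. The dashed diagonal is an even gradient, and Pdzph1 lies next to it while Slc14a2 lies near the vertical line of no change between middle and caudal.

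Differences between the genes in the middle minus ends values of the pools were tested in 10 pairs. The test was a two-sided exact permutation over 84 arrangements, whose smallest p is 0.0119. These values are not scaled to a gene's span, so 2 genes with the same uneven shape and different spans would differ in them too. Slc14a2 minus Pdzph1 was -0.39 (95% interval -0.64 to -0.15, exact permutation p = 0.0119, 0.0595 adjusted over the 10 pairs). As3mt minus Pdzph1 was -0.22 (95% interval -0.34 to -0.10, exact permutation p = 0.0119, adjusted 0.0595). The other 8 pairs had adjusted exact p-values of 0.268 or more, so 0 of the 10 pairs passed. With 2 pairs at the smallest p, the adjustment could not go below 0.0595, so these 2 pairs could not pass. The intervals of Dct minus Pdzph1 (-0.36 to -0.01) and Slc14a2 minus 4933424G05Rik (-0.55 to -0.07) also lay below 0. The spans of Slc14a2 and 4933424G05Rik were 0.87 and 0.51, so their interval mixes shape with span. For As3mt minus Slc14a2 the interval was -0.13 to 0.47, which includes differences in either direction. The permutation also exchanges rostral with caudal pools, between which the genes' spans differ, and pools share arrays, so a p above the limit says little here.

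Within regions the genes did not all vary together. Over the 9 pools the correlation between 2 of the genes ran from 0.854 (Slc14a2 with Pdzph1) to 0.985 (Dct with As3mt), which mostly reflects the shared difference between regions. With the region means removed, Pearson's r over the 9 pools was 0.777 for Dct with As3mt, 0.745 for As3mt with Pdzph1 and 0.699 for Dct with Pdzph1. For Slc14a2 it lay between -0.59 (4933424G05Rik) and 0.07 (Pdzph1). These pools share arrays, and the correlations are descriptions.

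Among 10383 features with 1 gene and values on all 18 arrays, the genes whose pool values followed each member most closely were listed, 5 per member. Dct was followed by As3mt (r = 0.985 over 9 pools), Fgfbp3, an FGF-binding protein gene (0.981), Scrn1 (0.978), Etv1 (0.975) and the noncoding Pantr2 (0.972). As3mt was followed by Etv1 (0.991), Dct, Fgfbp3, Rnd3 and the ubiquitin ligase subunit gene Fbxw7. Pdzph1 was followed by Scrn1 (0.988), Pantr2, the kinase gene Map2k6, Dct and Hivep1, and 4933424G05Rik by Atg10 (0.977), Etv1, As3mt, Rnd3 and Sgo1 (0.967).

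Slc14a2 had a list of its own with 1 gene, Fbxw7, in common with another. It held Cecr2 (0.970), the synaptic vesicle gene Syt1, Cd1d2, Fbxw7 and Sgce (0.942), all with small spans, such as 0.26 for Cecr2 and 0.18 for Sgce in rostral minus caudal. Being chosen as followers of Slc14a2, they had small middle to caudal differences too, from -0.00 for Sgce to 0.06 for Fbxw7. Etv1 stood in the lists of 3 members, and the 25 entries held 16 distinct genes. The ranking used pool values that hold the difference by which the members were chosen. Other features with a clear difference of that kind therefore rank high, and nothing is read from shared entries.

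The genes next to the members in the genome were compared where a probe of them was tested, 3 on each side. Of 30 such neighbours, with 1 probe standing for each, 0 passed in rostral against caudal, where 0.0648% of all features did. An unadjusted limma p under 0.05 was held by 2 and a value above 0 by 17, against 7.9% and 50.4% of all features. All 6 neighbours of Dct were above 0, at 0.01 to 0.22, against the 1.15 of Dct itself. The lowest was Gpc6, whose other probe was at -0.04, so its sign depends on the probe. Gpr180 was at 0.20 ± 0.07 (limma unadjusted p = 0.0295, adjusted p = 0.527). Next to As3mt, the neurofilament gene Ina was lower in rostral pools at -0.25 ± 0.05 (limma unadjusted p = 0.00151, adjusted p = 0.187). Beside Slc14a2, the related urea transporter gene Slc14a1 was at -1.82 with an SE of 1.17, too imprecise to place.

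The pathways that the members are known from held no other gene that passed. With 0.0648% of all features passing, this is the usual result for lists of this size, so nothing is read from it. Of 24 pigment cell and melanin genes other than Dct, 20 were measured, and 0 passed in rostral against caudal. Of these 14 were above 0 and 6 below, with a median of 0.04 against 0.00 over all features. An unadjusted limma p under 0.05 was held by 2 of the 20 (10%), against 7.9% of all features. Tyr, the tyrosinase that starts melanin synthesis, was at -0.16 ± 0.06 and Rlbp1, a retinoid-binding protein gene of pigment epithelium, at 0.36 ± 0.09 (SE), the 2 with the lowest p-values, and neither passed (limma adjusted p = 0.532 and 0.296). The melanosome genes Tyrp1, Pmel and Mlana were at 0.06, 0.12 and 0.05 (SE 0.20 for Mlana), and the melanoblast regulators Mitf, Sox10 and Kit at 0.11, 0.02 and 0.02. The 6 genes below 0 were Tyr, Oca2 (-0.29, SE 0.63), Gpr143 (-0.17), Ednrb (-0.07), Edn3 (-0.02) and Mc1r (-0.02). The other probes of Mitf were at 0.23 and -0.07, so its probes disagreed in sign. The list medians by pool were -0.00 to 0.02 in rostral, -0.01 to 0.05 in middle and -0.08 to 0.01 in caudal pools. Pigment cells as a part of the Dct difference were not tested beyond these values.

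Of 15 urea transport and urea cycle genes, 13 were measured, with 6 above 0, 7 below, a median of -0.00 and 0 past the limit. Oat, the ornithine aminotransferase, had the lowest p at 0.36 ± 0.06 (limma adjusted p = 0.156), and the arginase gene Arg2 was at -0.12 ± 0.07. The list of arsenic and one-carbon metabolism had 26 genes, chiefly of methyl donor supply and use, glutathione and thioredoxin. Of these 20 were measured, with 9 above 0, 11 below, a median of -0.01 and 0 past the limit. The lowest p-values were those of Gss, glutathione synthetase, at 0.13 ± 0.06, and Cbs, cystathionine beta-synthase, at 0.16 ± 0.07 (limma adjusted p = 0.644 and 0.655).

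Of 10 reported rostral genes measured, 7 were above 0 and 1 passed, Etv1. Of 12 reported caudal genes measured, 10 were below 0 and 1 passed, Nr2f1, by 1 of its 2 probes. The direction of the ratios rests on these same 2 genes, so their signs are no finding. Among markers of other tissues and cells, 0 genes passed in the lists of surface and olfactory epithelium (8 measured, median 0.15), eye (10, 0.05), ventral telencephalon (11, 0.01), choroid plexus (5, 0.06), endothelium (10, -0.08), red blood cells (8, -0.05) and microglia (8, -0.06). The genes of lowest p were Gng8 (0.30) and Ebf2 (-0.09) for the epithelium, the lens crystallin gene Cryab (-0.76) and Six6 (0.10) for the eye, and the homeobox genes Gsx2 (-0.53) and Dlx5 (-0.23) for the ventral telencephalon. They were Folr1 (0.23) and Msx1 (-0.05) for choroid plexus, Cldn5 (-0.14) and Emcn (-0.13) for endothelium, Alas2 (-0.32) and Hbb-y (-0.33) for red blood cells, and Tyrobp (-0.15) and Fcer1g (-0.15) for microglia. The lowest adjusted limma p among these was 0.0807, for Cryab. As 0.0648% of all features passed, 0 past the limit is usual in lists of this size and no finding. The cell types of the cortical wall gave 1 gene past the limit, Vim of radial glia at -0.51 ± 0.05 (limma adjusted p = 0.0389), with list medians of 0.00 over 15 radial glia genes, 0.08 over 10 intermediate progenitor genes and -0.02 over 14 cortical neuron genes. In the last 2 lists the genes of lowest p were Sstr2 (-0.28) and Insm1 (0.29), and Fezf2 (-0.28) and Reln (-0.36, with its other probe at -0.04). Each of these lists was mixed: 8 of 15 radial glia, 6 of 10 intermediate progenitor and 6 of 14 cortical neuron genes were above 0. Those above 0 included Slc1a3 of radial glia at 0.32 and Bcl11b of cortical neurons at 0.21.

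The meninges list ran opposite to the 5 genes: 13 of 14 measured genes were below 0 in rostral minus caudal, with a median of -0.15, 0 past the limit and 6 at an unadjusted limma p under 0.05. Over all features 7.9% (1464) had such a p. The same count was 6 of 14 for cortical neuron genes, 5 of 10 for intermediate progenitor genes and 5 of 15 for radial glia genes, so meninges was not alone in it. Nor was it alone in its direction, with 7 of 8 microglia genes and 8 of 10 endothelium genes below 0. Over all features 9177 of 18525 were below 0. Ptgds was at -0.66 ± 0.13 and the proteoglycan gene Dcn at -0.39 ± 0.09 (limma adjusted p = 0.187 and 0.233). Lama1, counted among the 13 and the 6 meninges genes at -0.14, had its other probe at 0.19, so its sign depends on the probe. The list medians were -0.11 to -0.00 in rostral pools and 0.03 to 0.13 in caudal pools, and the part of meningeal RNA in the members' differences was not tested. In rostral against middle and middle against caudal, 0 genes of the 16 lists passed, where 0 of all features did.

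**Figure D4:**
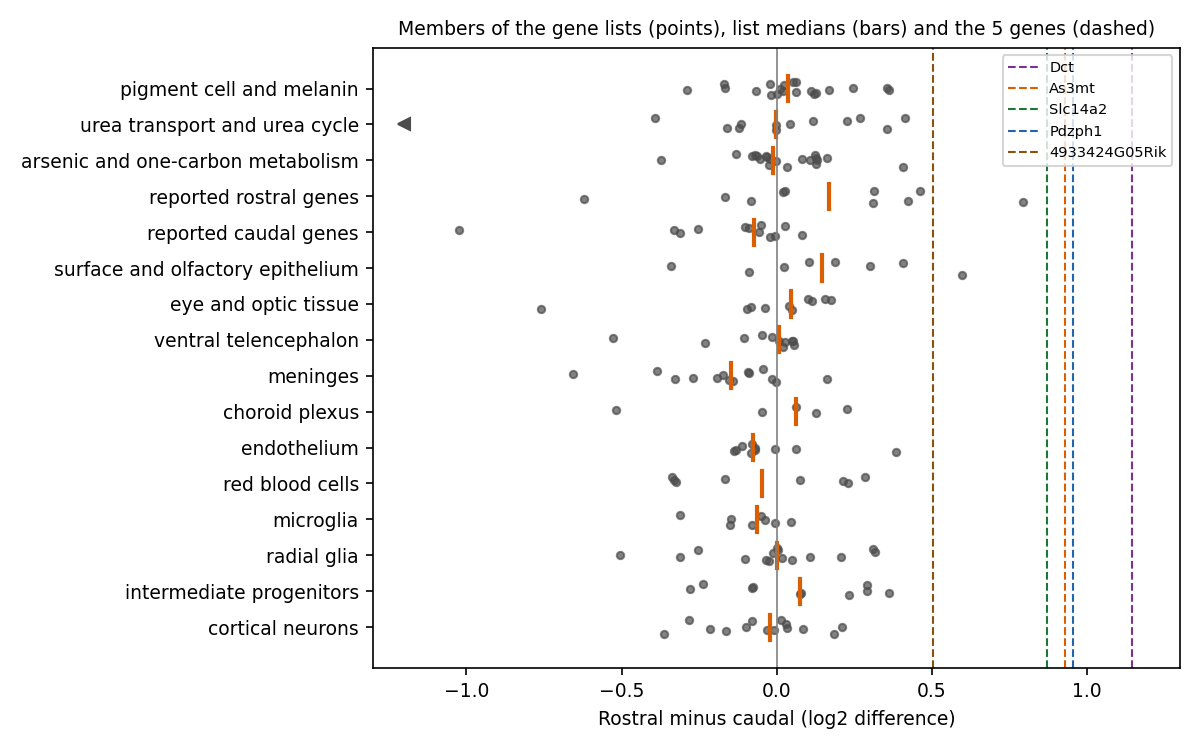
Rostral minus caudal log2 difference (horizontal axis) of each measured gene (points) of the 16 gene lists (rows), with a bar at each list's median and dashed lines at the 5 genes chosen. Slc14a1, at -1.82, lies beyond the left edge and is drawn as an arrowhead. The dashed lines lie between 0.51 and 1.15, while the medians of the pigment, urea and arsenic lists lie within 0.04 of 0.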

How the data were processed

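RNA of 9 pools of neocortex was measured on 18 arrays with 2 dyes. The authors deposited 1 log2 ratio per probe and array (21998 probes, 232 of them Gapdh control spots left out of tests); scanner, background correction and normalization were not given in the sources used here. Arrays held 18085 to 20693 values; their number limits the precision. Capped ratios (1477, log2 of 100000) were set to missing and each array was centred on its median (-0.09 to 0.61 before). Features needed values on 12 arrays and on 2 arrays of each pool. Per feature, least squares gave 1 value per pool and 1 dye term. limma 3.58.1 in R 4.3.3 (lmFit, eBayes) was fitted to the 9 pool values by region, with 6 residual and 1.26 prior degrees of freedom and Benjamini-Hochberg adjustment over 18525 features, two-sided, and was tested on simulated data. Gene symbols came from the platform annotation: 16632 probes had 1, 139 several and 4995 none.

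The 5 genes, the 16 gene lists and the tests were chosen with earlier results of these data known. Named were each gene's 5 closest followers over the pools, its 3 nearest tested neighbours on each side where they stood out, each list's genes that passed or else its 2 of lowest p, and the features around the limit. Further genes of the pigment list (Tyrp1, Pmel, Mlana, Mitf, Sox10, Kit, Oca2, Gpr143, Ednrb, Edn3, Mc1r) were named after their values were seen. So were Slc1a3, Bcl11b and Lama1 of other lists. Alternatives varied centring, capped values, the filter, the dye term, the sample unit, array weights, a Gapdh covariate, and each pool or array left out.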

Additional observations from a re-analysis of the deposited data

How the results depend on the processing

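Rostral minus caudal kept its sign for the 5 genes in 39 of 39 alternatives each, which the choice of the genes by this difference largely fixes. It ran between 1.03 and 1.23 for Dct, 0.86 and 1.01 for As3mt, and 0.78 and 1.05 for Slc14a2. For Pdzph1 it ran between 0.85 and 1.14, and for 4933424G05Rik between 0.38 and 0.58. The count of 12 features past the limit depended on the setting. It was 0 without centring, with the Gapdh covariate and on the 6 arrays that join the ends alone. It was 46 with values on all 18 arrays required, 7 with at least 9 arrays, 7 with array weights, 21 on the 12 arrays with a middle pool and 3 without the 4 arrays with most capped ratios, an alternative chosen after seeing the data. With 1 pool or array left out it ran from 0 to 22. It was 1 without rostral pool 2, 2 without rostral pool 3, 4 without middle pool 1 and 0 without any other pool. Leaving out array 13 gave 2, array 14 gave 6, array 15 gave 22, and arrays 11 and 16 gave 7 each. With the array as the sample it was 1327, but arrays share pools, so those p-values are too small; the middle against the mean of the ends then had 291 features past the limit, with As3mt at an adjusted p of 0.0358 and Slc14a2 at 0.00331, against 0 otherwise. Rostral against middle and middle against caudal kept 0 in the alternatives run. The causes were not tested.

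With the pool number as a replicate block, 0 features passed in rostral against caudal. Same-numbered pools correlated at -0.432 to -0.057 across features. They never shared an array, and that layout can itself lower these correlations. Whether the numbers pair the pools is therefore not settled. Over the 37 alternatives the middle minus ends value ran from -0.34 to -0.11 for Dct, -0.38 to -0.19 for As3mt, -0.55 to -0.31 for Slc14a2 and -0.24 to -0.04 for 4933424G05Rik, each lowest without centring. It kept its sign in 37 of 37 for these 4 genes, and in 34 of 37 for Pdzph1, which ran from -0.0790 to 0.0505 with 1 pool or array left out (0.0054 without rostral pool 2, 0.0491 without middle pool 1 and 0.0505 without array 13). Its unadjusted p was under 0.05 in 37 of 37 alternatives for Slc14a2, 35 for As3mt, 14 for 4933424G05Rik, 5 for Dct and 0 for Pdzph1. The alternatives reuse the same 9 pools, so these counts are not repeated tests. They include the fit without centring and the fit with the array as the sample, whose p-values are too small.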
